A study of Mus musculus with 35 samples.

Results

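The hearts of IAMP-KO mice were compared with those of IAMP-HET mice, gene by gene, with 4 hearts in each genotype. These 8 RNA-Seq libraries are all of the heart libraries among the 35 of the study, whose other libraries come from cultured cardiac fibroblasts (CFs). Every gene of the heart table was a member of the comparison, 55487 in all, and 16675 of them had enough counts to be tested. The study asked whether a micropeptide that is enriched in CFs, named Inflammation Associated MicroPeptide (IAMP), restrains inflammation in the heart. The hearts were those of unstressed mice.

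The mice were C57BL/6, and the hearts were taken at 8 weeks of age with no surgery or diet. The KO line was made with Cas9 mRNA and 1 sgRNA injected into fertilized eggs, which gave a frameshift in the small open reading frame of IAMP, and all KO hearts come from that line. HET mice carry 1 frameshift allele and 1 intact allele, so the comparison is of no functional copy against 1, and wild-type hearts were not analysed here. Sex, litter and the part of the heart taken are not given in the labels. The hearts carry animal numbers in the table but no replicate number, and they are named HET a to d and KO a to d below in the order of the table.

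A micropeptide is a protein translated from a short reading frame, often in a transcript once taken to be noncoding. IAMP is encoded by 4930523C07Rik (ENSMUSG00000090394; GRCm38 chr1:160044382-160080208). In the heart, fibroblasts build the collagen matrix and, when stressed, secrete cytokines that recruit leukocytes, whereas cardiomyocytes hold most of the RNA. In CFs, the study examined HSP90, a chaperone, as a partner of IAMP, and HIF-1α, the oxygen-regulated transcription factor, as a client of HSP90. A frameshift of the reading frame removes the protein and may leave the transcript in place, so the level of the mRNA in the table is no check of the knockout.

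The reading frame is shown because it is the piece of the gene that distinguishes KO from HET hearts. It spans 300 bases within 1 coding exon on the plus strand, at chr1:160075162-160075461 of GRCm38 (GENCODE vM21 transcripts), and encodes 99 amino acids. Capitals mark the start and stop codons.
IAMP reading frame: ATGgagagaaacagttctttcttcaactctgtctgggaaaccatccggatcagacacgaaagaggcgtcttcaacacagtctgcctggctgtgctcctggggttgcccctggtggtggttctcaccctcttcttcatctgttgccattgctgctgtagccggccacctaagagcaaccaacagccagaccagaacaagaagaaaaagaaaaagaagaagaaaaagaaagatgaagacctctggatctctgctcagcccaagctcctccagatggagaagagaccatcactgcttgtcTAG

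The IAMP transcript was present in every heart of both genotypes, at 15.9, 16.5, 18.8 and 17.03 CPM (counts scaled to the size of the library) in HET a to d and at 15.4, 17.3, 15.2 and 16.3 CPM in KO a to d. The groups overlapped. The log2 fold change, KO minus HET throughout, was -0.09 (95% interval -0.24 to 0.07). Its neighbors on chromosome 1 also had overlapping groups. Cop1, a ubiquitin ligase, had a log2 fold change of -0.02, Cacybp 0.02, the mitochondrial ribosome gene Mrps14 0.01 and Rabgap1l -0.02. The intervals of these named neighbors all lay between -0.21 and 0.19. The list of genes at this locus had 6 tested members, with log2 fold changes up to 0.14. All 6 were bounded within 2-fold and 5 within 1.5-fold, and 4 further members were too low to test.

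The libraries were of like size, with 23497027 to 23857313 counts and 23555 to 23988 genes detected in each. Mitochondrially encoded genes took between 24.0% and 27.6% of the counts. No pair of hearts was a repeat of the same library, since the counts of every pair differed by more than sampling noise (chi-square per degree of freedom 4.12 to 12.1). The tissue label held against its markers. The ventricular list summed to between 21433 and 24520 CPM per heart, and Myh6, the adult cardiac myosin heavy chain, led the sarcomere list at 15230 to 17792 CPM. All 8 hearts contained the Y-linked transcripts, with Ddx3y at 31.9 to 40.7 CPM. The p-values measure the spread between these 8 animals.

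No gene passed the test in KO against HET hearts. In the quasi-likelihood test of edgeR, at thresholds of 2-fold and of 0.05 for the adjusted p, 0% of 16675 genes were called higher and 0% lower. Without adjustment 601 genes (3.6%) had a p under 0.05, 324 of them higher (1.94%) and 277 lower (1.66%) in KO hearts. With no difference in any gene, 834 would be expected. DESeq2 called 3 genes by the same thresholds, Fyb higher and Heg1 and Bmp10 lower, and without the fold threshold it added Clk1 and Plin4. Limma-voom called 0. Leaving out HET a, KO a, KO b or KO d each led edgeR to 1 call, Mapt, Fyb, Gm8941 and Gm7030 in turn. The 2 genotypes did not overlap in 198 genes with KO above (1.19%) and 197 genes with KO below (1.18%). The median log2 fold change over all genes tested was -0.00, with 8249 genes higher and 8426 lower.

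Among genes lower in KO hearts, Heg1 (chr16:33684370-33771576) had the largest level among the 5 with the lowest p. It encodes a transmembrane protein of the endothelium and endocardium that is required for heart development. Heg1 stood at 93.6, 86.9, 96.2 and 112 CPM in HET hearts and at 39.0, 57.9, 41.0 and 55.9 CPM in KO hearts. Every KO heart lay below every HET heart. The log2 fold change was -1.003 (95% interval -1.33 to -0.68), and the adjusted p of edgeR's quasi-likelihood test was 0.405. DESeq2 gave Heg1 an adjusted p of 5.58e-09, and the adjusted p ran from 5.58e-09 to 0.921 over the 14 alternative fits, so the call depended on the test. An antisense gene, Gm15657, overlaps Heg1, and the sum of both differed by -0.99 on the log2 scale. Pecam1, the platelet-endothelial adhesion molecule, had a log2 fold change of 0.06 (95% interval -0.10 to 0.22).

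The genes with the lowest p among those of at least 1 CPM and higher in KO hearts differed by small amounts. Clk1, a kinase of splicing factors, was at 51.2, 48.5, 51.3 and 46.6 CPM in HET hearts and at 60.2, 60.0, 59.8 and 59.0 CPM in KO hearts. The groups were apart, and the log2 fold change was 0.27 (95% interval 0.17 to 0.37; adjusted p 0.405 by edgeR, 0.00117 by DESeq2, and 0.00117 to 1 over all alternatives). Klf15, a glucocorticoid-induced transcription factor of cardiac lipid metabolism, was at 76.3, 74.1, 80.4 and 70.0 CPM in HET hearts and at 90.8, 92.4, 92.9 and 84.4 CPM in KO hearts. Its log2 fold change was 0.26 (95% interval 0.14 to 0.38), again with no overlap. Plin4, a lipid droplet coat protein, differed by 0.18 and Stard13, a lipid transfer domain protein, by 0.24, with all KO hearts above all HET hearts in both. Phtf1os, a transcript that overlaps 2 other genes, differed by 0.65.

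Those with the lowest p and lower in KO hearts were, besides Heg1, mostly unnamed or composite gene models. Prn, a readthrough model over the prion protein gene Prnp and its neighbor Prnd, was at 3.01, 3.13, 2.76 and 3.73 CPM in HET hearts and at 1.96, 1.69, 1.89 and 1.64 CPM in KO hearts (log2 fold change -0.82). Its exons are shared with both genes, so its count depends on how reads were divided among them. Gm17029 differed by -0.51, E230013L22Rik by -0.52 and 4631405J19Rik by -0.32, all with KO below HET. Below 1 CPM, Hpgds, the hematopoietic prostaglandin D synthase of mast cells and macrophages, was at 0.921, 0.914, 0.849 and 0.761 CPM in HET and at 0.348, 0.211, 0.247 and 0.302 CPM in KO hearts. It had the lowest p of all genes, with a log2 fold change of -1.62 and an adjusted p of 0.279 by edgeR. Stox1, a winged-helix transcription factor, was at 0.392 to 0.424 CPM in HET hearts and 0.782 to 0.949 CPM in KO hearts (log2 fold change 1.03).

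Fyb, an adaptor protein of T cells, and Bmp10, a ligand made by atrial cardiomyocytes, were called by DESeq2 on values that divided the hearts unevenly. Fyb was at 1.51, 2.18, 1.53 and 1.88 CPM in HET hearts, and at 2.22, 28.4, 29.9 and 28.9 CPM in KO hearts, so that KO a lay with the HET hearts. Without KO a, edgeR's adjusted p was 4.92e-07, and with all hearts the log2 fold change was 3.65 (unadjusted p 0.0034). The gene Gm7666 overlaps Fyb on the same strand, at 54.1, 52.6, 47.0 and 50.6 CPM in HET and 46.1, 41.9, 39.5 and 42.7 CPM in KO hearts. The sum of Fyb and its 2 overlapping genes was at 55.6, 54.8, 48.5 and 52.4 against 48.3, 70.2, 69.4 and 71.6 CPM. That sum differed by 0.28 on the log2 scale, and KO b, KO c and KO d stayed above all HET hearts. The T and NK cell list, which holds Fyb, had 12 of 15 tested members higher and 3 lower, a median log2 fold change of 0.19 (-0.12 without KO a), and 1 member at an unadjusted p under 0.05, which was Fyb. Bmp10 had 68, 3, 37 and 18 counts in the HET hearts and 0 in each KO heart. It fell below the count filter of the edgeR test, and the other atrial genes are given further on.

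The same data bound the differences that could have been present. The 95% interval of the log2 fold change lay wholly within a 2-fold change in either direction for 15640 of 16675 genes (93.8%), and wholly within 1.5-fold for 13382 (80.3%). The bound is the end of the interval farthest from no change, and its median was 1.24-fold. It depended on the level of the gene. Of the 1036 genes at 100 CPM or more, 99.6% were bounded within 2-fold and 98.5% within 1.5-fold, whereas for the 2229 genes under 1 CPM the shares were 70.9% and 22.8%. These are intervals for 1 gene at a time. Intervals that hold for all genes together bounded 8185 genes (49.1%) within 2-fold and 2546 (15.3%) within 1.5-fold.

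**Figure D1:**
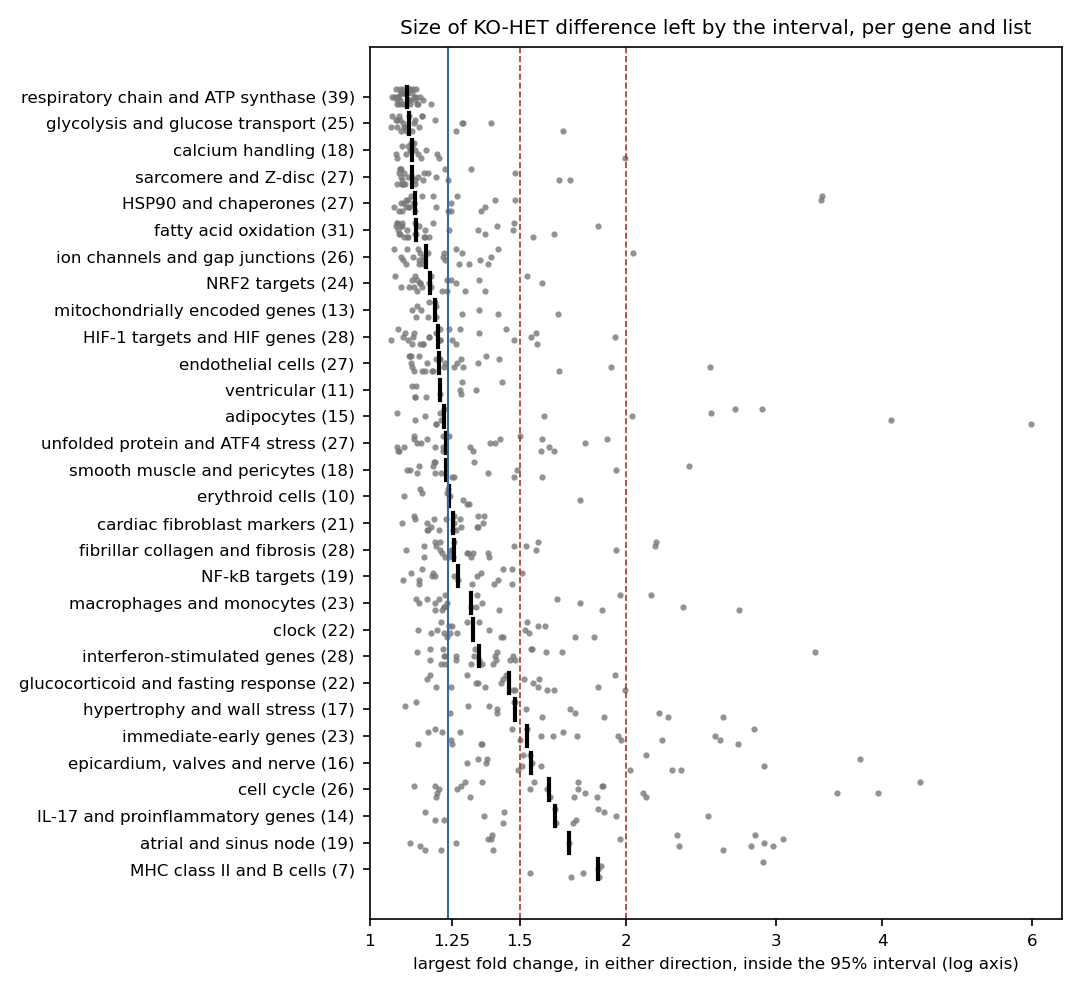
Each row is a gene list, each point a tested member, and the horizontal axis gives the end of the member's 95% interval farthest from no change, in fold on a log axis, with a black tick at the median of the list, dashed lines at 1.5-fold and 2-fold and a blue line at the median of all genes. Members of the respiratory chain, sarcomere and calcium lists gather near medians of 1.11-fold to 1.12-fold, and those of the MHC class II and atrial lists have medians of 1.86-fold and 1.71-fold. Lists of T and NK cells, neutrophils and mast cells, skeletal muscle and tissue outside the heart are not drawn. Those of sex-linked genes, IAMP neighbors and genes the study follows are also left out. Median bounds were 2.12-fold for T and NK cells (7 of 15 members within 2-fold) and 3.23-fold for tissue outside the heart.

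Genes of contraction and calcium cycling in the cardiomyocyte had median bounds of 1.12-fold. Among 27 genes of the sarcomere and Z-disc, all were within 2-fold and 25 within 1.5-fold, with a median log2 fold change of -0.03. Myh6 differed by -0.07 (95% interval -0.18 to 0.04) and Tnnc1, cardiac troponin C, by -0.15 (95% interval -0.31 to 0.00). All 18 calcium handling genes were within 2-fold and 17 within 1.5-fold, with a median of -0.00. Atp2a2, the calcium pump of the sarcoplasmic reticulum, differed by 0.01 (95% interval -0.09 to 0.11), its inhibitor Pln by 0.04 (95% interval -0.08 to 0.16) and the release channel Ryr2 by -0.00 (95% interval -0.11 to 0.10). No member of either list had an unadjusted p under 0.05.

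Among 26 ion channels and gap junction genes, 25 were bounded within 1.5-fold and the median was -0.03. Kcnj2, the inward rectifier channel, differed by 0.19 with overlapping groups. In all, 2 of 26 members had an unadjusted p under 0.05, beside 3.6% of all genes.

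All 39 tested genes of the respiratory chain and ATP synthase lay within 1.5-fold, and their median bound was 1.11-fold, with a median log2 fold change of -0.01 and Ndufv2, a complex I subunit, at -0.06. Of 31 fatty acid oxidation genes, 28 were within 1.5-fold (median 0.01), and Cd36, the fatty acid transporter, was above in all KO hearts by 0.11. Of 25 glycolysis and glucose transport genes, 24 were within 1.5-fold (median -0.03). Slc2a1, the basal glucose transporter, was at 19.6, 18.0, 19.7 and 19.6 CPM in HET hearts and at 24.4, 21.2, 21.6 and 20.1 CPM in KO hearts (log2 fold change 0.18, unadjusted p 0.0251). Mitochondrially encoded genes, 13 in number, had a median of 0.05, and 12 were within 1.5-fold.

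The hypertrophy list, whose members are induced by wall stress, was bounded less well. Of 17 tested genes, 14 were within 2-fold and 9 within 1.5-fold, and the median log2 fold change was -0.08. Nppb, brain natriuretic peptide, was at 56.0, 72.6, 62.6 and 78.2 CPM in HET hearts and at 45.1, 54.3, 26.9 and 78.6 CPM in KO hearts (log2 fold change -0.40, 95% interval -1.13 to 0.34). Acta1, the skeletal actin of the fetal program, differed by -0.09 with an interval of -0.78 to 0.60, and its SD within genotype was 0.46. Nmrk2, a nicotinamide riboside kinase, differed by -0.44 (95% interval -0.80 to -0.08). The 11 tested ventricular genes were all within 1.5-fold (median -0.06), and Hey2, a repressor of atrial identity, was above in all KO hearts by 0.31 (95% interval 0.09 to 0.52).

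The genes of the matrix and of fibroblasts, the cells in which IAMP is enriched, did not differ by much. Of 28 tested genes of fibrillar collagen and fibrosis, 26 were within 2-fold and 22 within 1.5-fold, with a median of -0.05. Col1a1, a chain of type I collagen, was at 127, 100.4, 133 and 153 CPM in HET hearts and at 126, 118, 133 and 116 CPM in KO hearts (log2 fold change -0.06, 95% interval -0.31 to 0.19). Col3a1 differed by -0.09 (95% interval -0.32 to 0.14) and Acta2, the smooth muscle actin of myofibroblasts, by -0.13 (95% interval -0.46 to 0.21). The lowest p of the list was that of Fbn1, a microfibril protein, at -0.22 (unadjusted p 0.029). All 21 fibroblast markers were within 1.5-fold, with a median of 0.02 and Dcn, decorin, at 0.07. A change in the number of fibroblasts and a change in their RNA per cell cannot be told apart in heart tissue.

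The genes of the HIF-1 and HSP90 systems were well measured. Hif1a differed by 0.06 (95% interval -0.08 to 0.21). Of 28 HIF-1 targets and HIF genes, all were within 2-fold and 24 within 1.5-fold, with a median of 0.05. At an unadjusted p under 0.05 were 5 of 28 members (17.9%), 3 higher and 2 lower, beside 3.6% of all genes. The genotypes did not overlap in 3 members with KO above and in 2 with KO below, beside 1.19% and 1.18% of all genes. Hif3a, an inhibitory HIF subunit, differed by 0.40, Slc2a1 by 0.18 and the mitophagy receptor Bnip3 by 0.19, while Egln3, a prolyl hydroxylase of HIF, differed by -0.18 and Nos2, inducible nitric oxide synthase, by -0.34. Vegfa differed by -0.09. Hsp90ab1, the constitutive HSP90, differed by -0.00 (95% interval -0.10 to 0.09) and the inducible Hsp90aa1 by -0.08 (95% interval -0.44 to 0.27). Of 27 chaperone genes, 25 were within 1.5-fold and none reached an unadjusted p under 0.05 in edgeR.

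Proinflammatory genes of the IL-17 pathway, which the study follows in CFs, were in part too low to test. Of 31 genes of the IL-17 and proinflammatory list, 14 could be tested. Of those, 13 were within 2-fold and 6 within 1.5-fold, the median was -0.02 and none reached an unadjusted p under 0.05 in edgeR. Cebpb, a transcription factor and the member with the highest level, was between 70.9 and 105 CPM and differed by -0.05 (95% interval -0.29 to 0.19). Cxcl1, a neutrophil chemokine, was between 0.401 and 0.594 CPM in HET hearts and between 0.288 and 0.634 CPM in KO hearts (log2 fold change -0.17, 95% interval -0.81 to 0.47), and Mmp3, stromelysin, differed by -0.15 (95% interval -0.79 to 0.50). Il6 had 0 counts in each HET heart and 0, 3, 0 and 0 counts in the KO hearts. S100a8, a neutrophil alarmin, had 0, 0, 8 and 0 counts in HET and 0, 8, 2 and 13 counts in KO hearts, and its partner S100a9 had 3, 0, 0 and 0 against 0, 9, 8 and 14. Il1b had 5, 0, 0 and 2 counts against 3, 5, 0 and 3. All of these genes stood below the filter and were not tested, and KO a had 0 counts of S100a8 and of S100a9, like most HET hearts. Of 12 tested genes that the study follows, 11 were lower and 1 higher in KO hearts, with a median of -0.09 and 10 bounded within 2-fold. Leaving out 1 heart moved this median to between -0.18 (without KO d) and -0.00025 (without HET d). The list is a selection from the genes the study follows.

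Genes of MHC class II and B cells had a median bound of 1.86-fold. All 7 tested genes of MHC class II and B cells were lower in KO hearts, whereas 8426 of 16675 genes were lower overall. Their median log2 fold change was -0.41 beside -0.00 for all genes. The list was chosen with earlier results of these data known, so its split is a description and not a test. H2-Ab1, an MHC class II chain, was at 12.9, 21.9, 24.1 and 14.7 CPM in HET hearts and at 13.5, 13.5, 13.6 and 12.7 CPM in KO hearts. The KO hearts were alike, HET a and HET d lay near them, and HET b and HET c were high (log2 fold change -0.47, unadjusted p 0.0349). Cd74, the invariant chain, was at 45.2, 89.9, 87.7 and 51.1 against 55.8, 55.8, 56.2 and 48.7 CPM, with the same 2 HET hearts high. Ciita, the master regulator of class II, differed by -0.78 and Ighm by -0.47, the other members at an unadjusted p under 0.05. In all, 3 of 7 members (42.9%) were lower at that level, beside 1.66% of all genes.

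Of 23 macrophage and monocyte genes, 8 were higher and 15 lower, 20 were within 2-fold, and the median was -0.05. Csf1r, the receptor for macrophage colony-stimulating factor, differed by -0.08 (95% interval -0.19 to 0.04). Folr2, a marker of resident macrophages, was at 1.93, 1.48, 1.91 and 1.28 CPM in HET hearts and at 2.30, 2.96, 2.30 and 2.59 CPM in KO hearts, all of them above HET (log2 fold change 0.62, unadjusted p 0.00289). Itgam differed by 0.52, Fcgr1 by -0.55 and Trem2 by -0.42, with overlapping groups. At an unadjusted p under 0.05 in edgeR were 17.4% of the 23 members, 2 higher and 2 lower, beside 3.6% of all genes. Of the 9 tested neutrophil and mast cell genes, 6 were higher and 3 lower, and Hpgds was the member at an unadjusted p under 0.05. Of 28 interferon-stimulated genes, 20 were lower and 8 higher (median -0.06), with Rsad2, an antiviral enzyme, at -0.28. Of 19 NF-κB targets, 18 were within 1.5-fold (median -0.02), with Nfkbia at 0.13 and the chemokine Cxcl16 at -0.27.

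Genes regulated by glucocorticoids and the circadian clock lay mostly on 1 side. These lists were chosen with earlier results of these data known, and members under shared regulation are not independent. Their splits are therefore descriptions and not tests. All 22 tested genes of the glucocorticoid and fasting response were higher in KO hearts, by a median of 0.18, whereas 8249 of 16675 genes were higher overall. The 3 with an unadjusted p under 0.05 were Klf15, Zbtb16 and Foxo3 (13.6% of the list, beside 1.94% of all genes higher at that level). Zbtb16, a zinc finger repressor, was at 85.2, 73.0, 63.0 and 76.2 CPM in HET hearts and at 88.1, 102, 96.5 and 90.6 CPM in KO hearts (log2 fold change 0.34, unadjusted p 0.00219). All KO hearts were above all HET hearts for Zbtb16 and Klf15, 2 of 22 members beside 1.19% of all genes, and the groups of Foxo3 overlapped (0.23). Each of the 22 genes was bounded within 2-fold, and 13 within 1.5-fold.

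Of 22 clock genes, 18 were higher and 4 lower in KO hearts, with a median of 0.12. Of these, 5 higher genes (22.7%) had an unadjusted p under 0.05, beside 1.94% of all genes in that direction. Ciart, a repressor of the clock, was at 8.92, 9.97, 7.98 and 7.65 CPM in HET hearts and at 10.9, 14.0, 10.8 and 10.9 CPM in KO hearts (log2 fold change 0.43). Wee1, a cell cycle kinase under clock control, differed by 0.39, again with no overlap. Nr1d2 differed by 0.23, Usp2 by 0.16, Cry2 by 0.13 and Per1, a target of both the clock and glucocorticoids, by 0.33, with overlapping groups. No clock gene was called by edgeR or DESeq2.

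The remaining lists held few values of interest for the genotype. Among 15 adipocyte genes 3 (20%) were higher at an unadjusted p under 0.05, beside 1.94% of all genes, namely Plin4, Elovl6 (0.76) and Adipoq, the secreted marker of fat cells, which was under 1 CPM in every heart (1.53). Of 27 endothelial genes, 18 were higher and 9 lower (median 0.03), and 26 were within 2-fold, Heg1 being the exception. At an unadjusted p under 0.05 in edgeR, 2 members (7.41%) were lower, beside 1.66% of all genes, and none higher. Aplnr, the apelin receptor, differed by -0.37. Of 27 genes of the unfolded protein and ATF4 response, 3 (11.1%) were higher at the same level, namely Chac1 (0.35), Dnajb9 (0.15) and Atf6 (0.13), with a median of 0.01. Smooth muscle and pericyte genes (18, median 0.04), NRF2 targets (24, median 0.03) and erythroid genes (10, median 0.01) had none at that level in edgeR. Cell cycle genes (26, median -0.01) had 1, Ube2c at -0.54, and skeletal muscle genes (9, median -0.09) and those of epicardium, valves and nerve (16, median -0.04) had none.

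Within each genotype, hearts differed little for most genes. The pooled SD of log2 CPM about the genotype means had a median of 0.13 over 14446 genes of at least 1 CPM and of 0.08 over genes of at least 100 CPM. The SD was larger among HET hearts for 8303 genes and among KO hearts for 6143. The first principal component held 19.9% of the variance and set KO c (22.2) against KO d (-22.2), 2 hearts of 1 genotype. By the chi-square of their counts, the pair farthest apart was HET d and KO a. With genotype means removed, it held 22.7%.

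**Figure D2:**
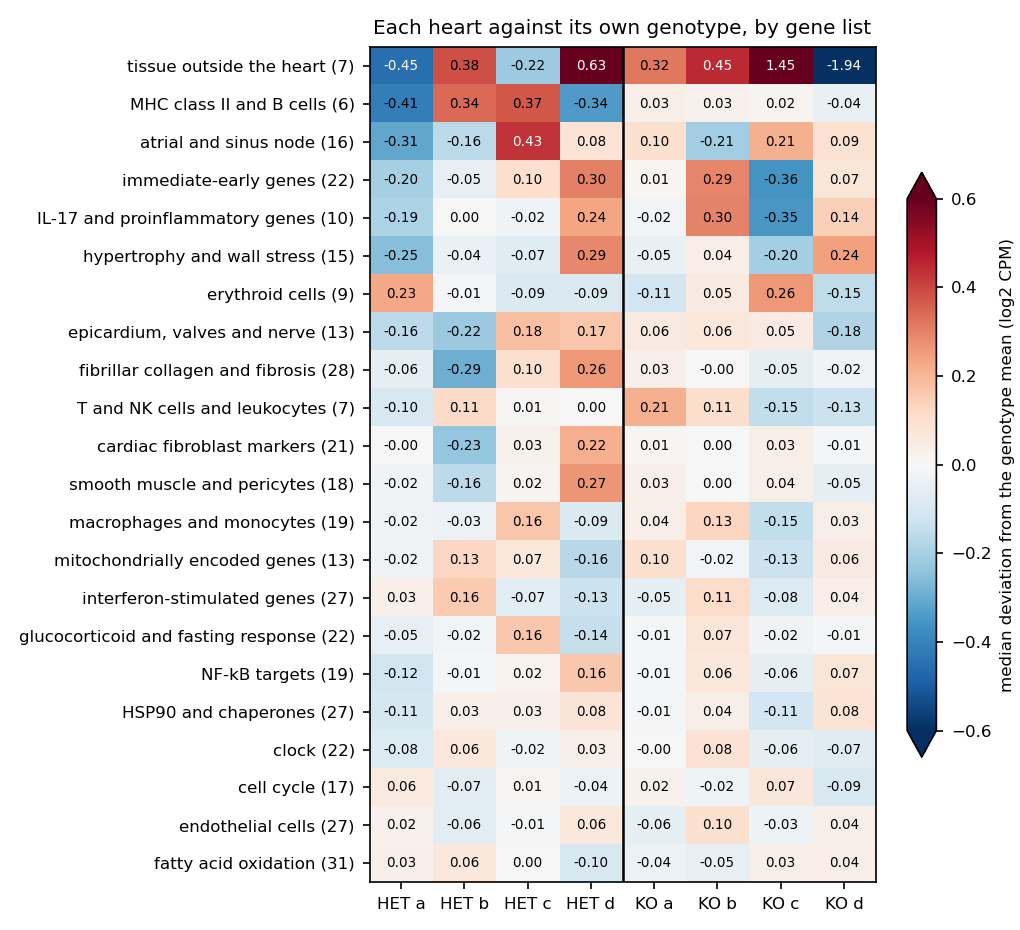
Rows are gene lists, columns the 8 hearts, and color gives the median deviation of the list's members from their genotype mean in log2 CPM. HET d is high and HET b low for collagen and fibroblast genes, HET c is high for atrial genes, and KO c and KO d stand at opposite ends for genes of tissue outside the heart.

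The spread of 1 heart was shared across the members of a program. For atrial and sinus node genes, HET c had, of the 8 hearts, the highest deviation from its genotype mean for 12 of 16 members. Myl7, the atrial regulatory myosin light chain, was at 30.1, 27.5, 107 and 72.2 CPM in HET hearts and at 48.9, 25.4, 52.1 and 68.2 CPM in KO hearts. Myl4 was at 33.2, 31.1, 113 and 83.7 against 55.9, 29.1, 57.9 and 66.7 CPM, and Sln, sarcolipin, at 8.79, 10.1, 43.1 and 23.5 against 19.6, 9.29, 21.3 and 23.8 CPM. The genotypes overlapped in all of them. The part of these genes in the differences of other genes was not tested.

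Nppa, atrial natriuretic peptide, followed the same hearts, at 104, 118, 305 and 167 CPM in HET and at 111, 105, 122 and 141 CPM in KO hearts. Its log2 fold change of -0.53 (95% interval -1.38 to 0.31) rested on HET c. As a difference of mean log2 CPM it was -0.41 with all hearts and -0.09 without HET c. Bmp10, also an atrial gene, had its most counts in HET a, so it did not follow the order of Myl7. Of 19 tested atrial genes, 13 were lower and 6 higher in KO hearts (median -0.08), and 11 were bounded within 2-fold.

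Matrix genes varied together too. HET d had the highest deviation in 22 of 28 genes of fibrillar collagen and fibrosis and HET b the lowest in 21, and for the fibroblast markers these were 16 and 17 of 21. HET d was the lowest heart for 34 of 39 respiratory chain genes. The fibroblast marker sum was 1947 CPM in HET b and 2915 CPM in HET d, and between 2504 and 2584 CPM in the KO hearts. Both extremes were HET hearts.

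**Figure D3:**
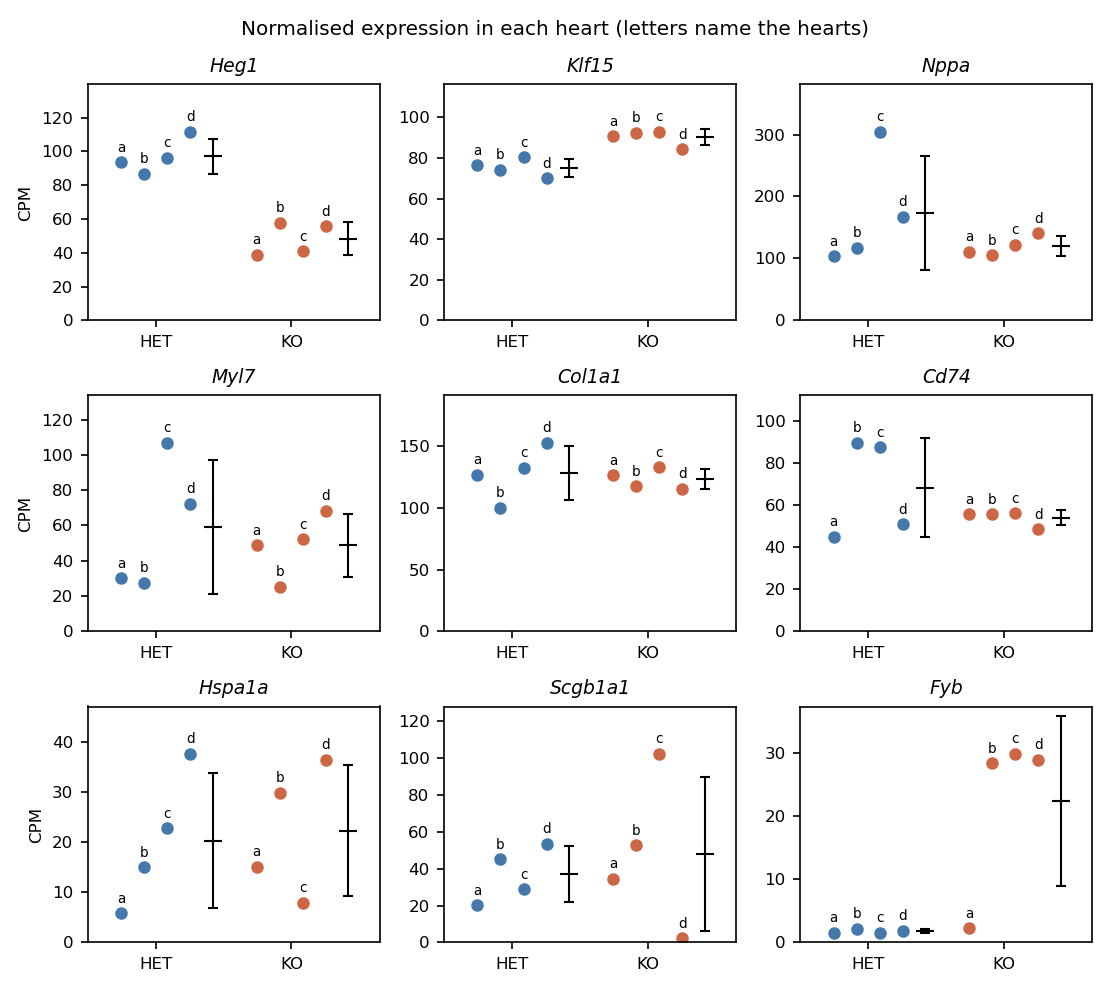
Each panel gives the CPM of 1 gene in the 4 HET and 4 KO hearts, with points for hearts and bars for the mean and SD of each genotype. Heg1 and Klf15 separate by genotype, Nppa, Myl7 and Cd74 have 1 or 2 high HET hearts, and Hspa1a, Scgb1a1 and Fyb differ between hearts of 1 genotype.

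Stress-inducible genes gave another shared pattern. Hspa1a, the inducible HSP70, was at 5.82, 14.98, 22.8 and 37.6 CPM in HET hearts and at 15.1, 29.8, 7.93 and 36.4 CPM in KO hearts. The genotypes overlapped fully, with a within-genotype SD of 1.07 and an interval of the log2 fold change from -1.495 to 1.76. Hspa1b, its neighbor and near copy, had the same order of hearts within each genotype and an SD of 1.08, and reads may be divided arbitrarily between them. Atf3, an immediate-early transcription factor, was at 3.10, 7.75, 9.46 and 13.5 against 6.56, 10.3, 3.04 and 12.7 CPM, low in the same HET a and KO c. Nr4a1, a nuclear receptor induced by stress, was at 12.6, 10.4, 16.5 and 19.2 against 23.9, 34.5, 10.4 and 21.9 CPM. Over 22 immediate-early genes the median deviation was 0.30 in HET d, 0.29 in KO b, -0.20 in HET a and -0.36 in KO c. The genotypes differed by a median of 0.09 over the 23 tested members.

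The promoters of Hspa1a and Hspa1b are shown because these genes moved together from heart to heart. They are the 250 bases before the start of each RefSeq gene (GRCm38.p6), on the minus strand at chr17:34972157-34972406 and chr17:34959239-34959488. Capitals mark GAANNTTC, the core of a heat shock element, where N is any base. It reads the same on both strands.
Hspa1a: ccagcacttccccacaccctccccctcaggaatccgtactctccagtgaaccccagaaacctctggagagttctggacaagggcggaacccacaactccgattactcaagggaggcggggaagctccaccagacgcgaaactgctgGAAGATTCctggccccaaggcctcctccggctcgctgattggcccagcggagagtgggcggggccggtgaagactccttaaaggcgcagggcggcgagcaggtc
Hspa1b: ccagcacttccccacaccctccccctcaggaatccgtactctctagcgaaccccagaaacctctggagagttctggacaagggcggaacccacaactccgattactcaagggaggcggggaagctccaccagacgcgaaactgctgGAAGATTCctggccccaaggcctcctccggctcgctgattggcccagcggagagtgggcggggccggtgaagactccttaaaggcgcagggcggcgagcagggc
The sequences differed at 3 of 250 bases, and each held the motif 1 time. It was present in the promoters of 7.73% of 27025 genes, over windows of the same length, and in those of 8 of 22 chaperone genes with a promoter sequence. A match is a description of the letters and not of binding.

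Transcripts of tissue outside the heart varied most. Scgb1a1, the secretoglobin of airway club cells, was at 20.3, 45.1, 28.9 and 53.7 CPM in HET hearts and at 34.5, 52.9, 102 and 2.37 CPM in KO hearts. Sftpc, surfactant protein C of the lung, followed the same order, at 8.88, 19.3, 13.2 and 24.6 against 16.3, 23.3, 42.7 and 1.34 CPM. KO c was the highest heart in deviation for 6 of 7 such genes and KO d the lowest for 6 of 7. Their sum ranged from 13.2 to 190 CPM, a ratio of 14.3 between hearts, and the genotypes overlapped, with 7 of 9 tested members higher in KO hearts (median 0.25, and -0.31 without KO c).

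A part of the within-genotype spread followed gene models rather than programs. Of 10231 genes of at least 5 CPM, 54 had an SD of at least 1, and 55.6% of these shared exon sequence with another gene on the same strand, against 8.52% of the others. The largest SD, 4.79, was that of a Septin2 model (ENSMUSG00000116048) at 38.6, 44.5, 0 and 12.1 CPM in HET and 0, 46.5, 0 and 47.8 CPM in KO hearts. A second model of Septin2 (ENSMUSG00000026276) was at 9.38, 5.79, 51.5 and 36.1 against 52.5, 3.80, 45.8 and 5.09 CPM, high where the first was low. The sum of both had an SD of 0.08. Septin-2 is a cytoskeletal GTPase. When genes that overlap on the same strand were summed, an alternative chosen after seeing the data, 25 features with an SD of at least 1 remained, 0 were called by edgeR and 590 had an unadjusted p under 0.05.

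**Figure D4:**
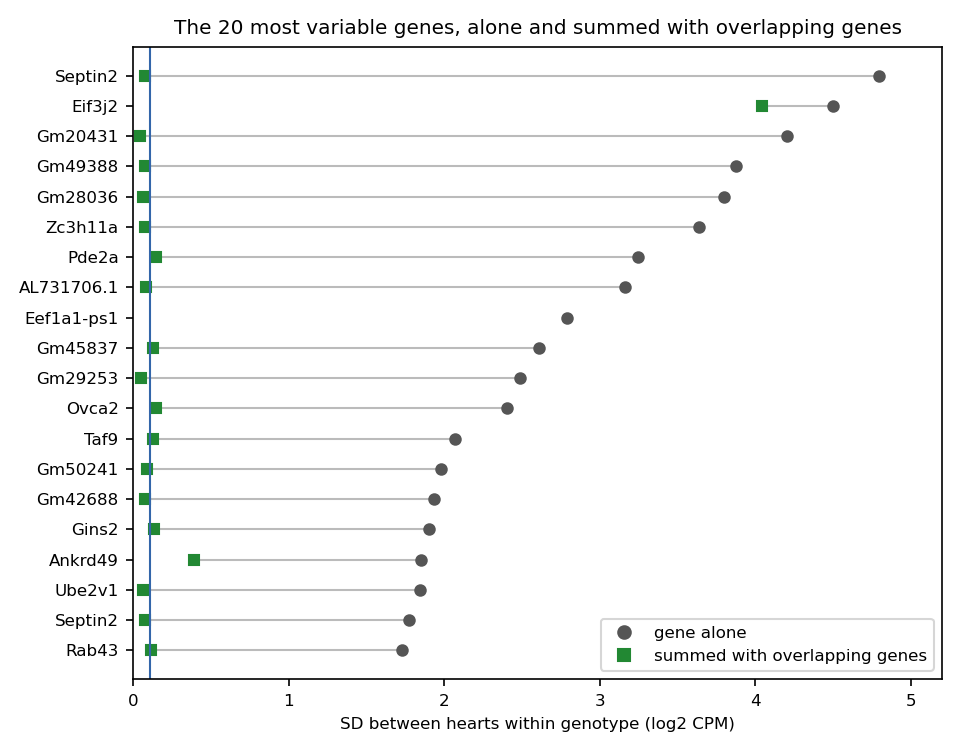
For genes that vary most between hearts of a genotype, the SD of log2 CPM on the horizontal axis is given for the gene alone (circles) and for its sum with the genes that overlap it (squares). For Septin2 the SD went from 4.79 to 0.08 on summing.

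Some genes were low in 1 heart. Among the 10231 genes, 49 had 1 heart at least 2-fold below the other 7, which themselves stayed within 2-fold, whereas 3 had 1 heart above. Of the 49, 30 shared no exon sequence with another gene and 19 did. The low heart was HET b for 12 genes and KO a for 9, and each heart held at least 3. Tead1, a transcription factor of the Hippo pathway, was at 7.85 CPM in KO c and between 148 and 163 CPM in the other 7 hearts. Its 95% interval ran from -2.16 to 1.51, and without KO c the log2 fold change went from -0.32 to 0.069.

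Last, the genes that respond to IAMP knockdown in cultured CFs were followed into the hearts. In 9 untreated CF libraries (114763924 to 119232309 counts each), 510 genes were called by edgeR with both siRNAs, in 1 direction and by the thresholds used for hearts, 231 higher and 279 lower. Of these, 315 were tested in hearts. The heart interval excluded the smaller of the 2 fibroblast changes for 306 of 315 genes (97.1%). These were 114 of 119 genes higher and 192 of 196 genes lower after knockdown. Each fibroblast change was at least 2-fold by selection, so any heart interval within 2-fold excluded it. Such an interval was found for 93.8% of all genes tested and for 97.3% of those at 1 CPM or more. The share excluded was near that of all genes. The median log2 fold change in hearts was 0.01 for genes higher after knockdown and -0.01 for genes lower, beside 1.53 and -1.58 in CFs. The sign was the same in 172 of 315 genes, whereas 8249 of all 16675 genes tested were higher in KO hearts. An unadjusted p under 0.05 in edgeR was found for 15 of the 315, beside 3.6% of all genes. Heg1 was higher in CFs after knockdown, by 1.09 and 1.52, and lower in KO hearts. These intervals bound the change in the heart tissue sampled, and the fibroblasts of the hearts were not measured apart.

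**Figure D5:**
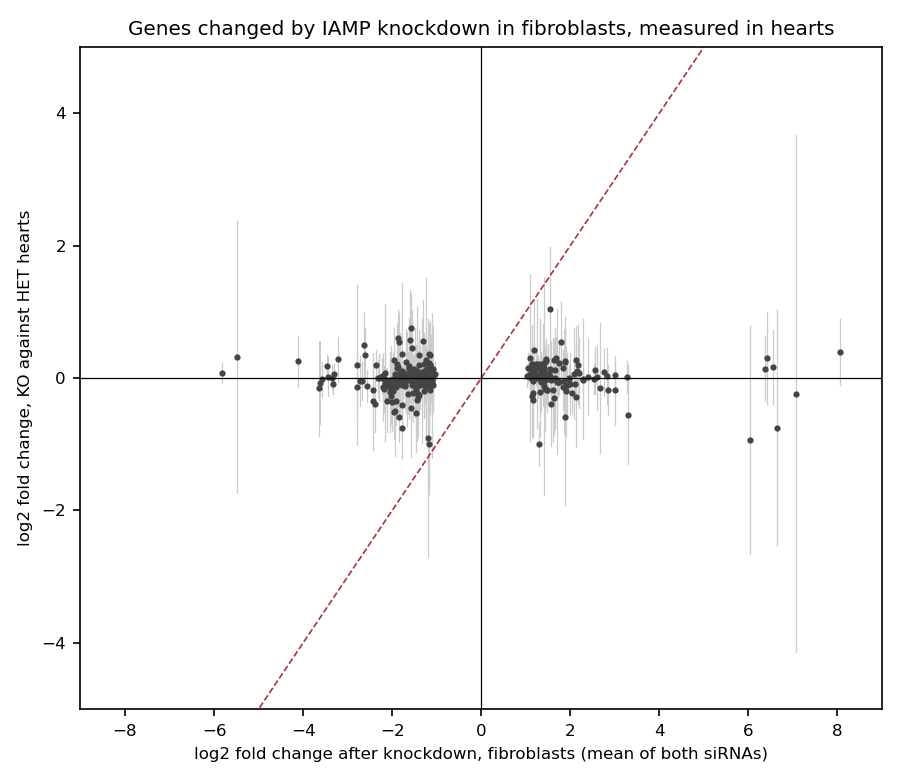
Each point is 1 of the 315 genes, with the mean log2 fold change of both siRNAs in CFs on the horizontal axis and the log2 fold change of KO against HET hearts on the vertical axis, gray bars for the 95% intervals in hearts and a dashed line where both would be equal. The points spread along the horizontal axis and stay near 0 on the vertical, with medians of 0.01 and -0.01 for genes higher and lower in CFs.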

How the data were processed

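Total RNA of heart tissue was enriched for poly(A) mRNA and sequenced by the authors. They trimmed the reads with Cutadapt, aligned them to GRCm38 with HISAT2 and quantified genes with StringTie. The deposited heart table holds counts per gene as whole numbers, and a gene can stand at 0 beside another model that shares its exons. The deposited table of untreated CFs also holds whole numbers, whose low values come in steps of several counts, so they were treated as estimated counts, and how the authors went from StringTie to these values is not given in the sources used here. The strandedness of the counting is not given in the sources used here. No column of the heart table was left out.

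Of 55487 gene identifiers, 55141 were found in GENCODE vM21, from which names, coordinates and exon overlaps were taken. Genes were filtered with filterByExpr and tested with edgeR 4.0.16 (TMM, robust quasi-likelihood fit, R 4.3.3), with Benjamini-Hochberg adjustment over all 16675 genes. Calls required an adjusted p of at most 0.05 and at least a 2-fold change, the criteria the authors give for CFs. The 95% interval is the estimate plus or minus the t quantile times its standard error. Log2 CPM used a prior count of 2. DESeq2 1.42.0, limma-voom (limma 3.58.1), other size factors and filters, and leaving out each heart were the alternatives. The fit was tested on simulated data. The members and lists were chosen with earlier results of these data known. Genes named are the 5 with the lowest p in each direction at 1 CPM or more, the most variable genes, the leading members of each list and the genes the study follows; the others, such as members at an unadjusted p under 0.05, were chosen after their values were seen. Lists were described by counts and medians and not tested. Columns hold animal numbers, so each column was assigned to its genotype and not to a single sample. Some genes are not reported here.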

Additional observations from a re-analysis of the deposited data

Results flagged for a closer look

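In groups of 4 hearts, a heart was picked out where its gap to the nearest of the other 3 made up most of the range of its group. This held in 15 of 262 groups, and chance gives about 1 in 20 at this cutoff, so the number picked out was near that of chance. Some measures overlap, such as Cd74, H2-Ab1 and the summed MHC class II and B cell list. The gap took 0.946 of the range for Fyb, with KO a at 2.22 CPM and the other KO hearts at 28.4 to 29.9 CPM. For Tead1 it took 0.945, with KO c at 7.85 CPM and the others at 155 to 163 CPM. The other cases were far smaller in size. Among KO hearts, heart d was low for Cd74 (0.944), H2-Ab1 (0.902), Phtf1os (0.851) and the summed MHC class II and B cell list (0.908). Heart c was high for Foxo3 (0.930) and low for Atf6 (0.904) and Fbn1 (0.878), and heart b was high for Ciart (0.955). Among HET hearts, heart b was low for Slc2a1 (0.921) and high for Cry2 (0.879), heart d was low for Kcnj2 (0.854) and Trdn (0.850), and heart a was low for the summed T and NK cell list (0.856).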

How the results depend on the processing

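The count of genes called was 0 in each direction by edgeR with other size factors, other filters, no robust estimation or overlapping models summed, and by limma-voom. DESeq2 gave 1 higher and 2 lower, Fyb at 3.66, Heg1 at -1.004 and Bmp10, whose fold against KO hearts at 0 has no bound. Leaving out each heart gave 0 to 1 higher and 0 to 1 lower: Mapt (-1.73) without HET a, Fyb (4.03) without KO a, Gm8941 without KO b and Gm7030 without KO d. Simultaneous intervals bounded 8185 genes within 2-fold and 2546 within 1.5-fold, and DESeq2, which kept 29699 genes, bounded 50.7% within 2-fold. At 10 CPM or more the median SD was 0.0952 and the first centred component held 26.3%. At 1 CPM or more that component held 22.7% with all hearts. Leaving out each heart at that cutoff gave 23.6% to 27.1%, above the value with all hearts each time. Summing overlapping models, chosen after seeing the data, left 25 features with an SD of at least 1. A fibroblast threshold of 1.5-fold gave 945 of 1020 genes excluded, and DESeq2 in hearts gave 356 of 455. Of all genes tested by edgeR, 80.3% had a heart interval within 1.5-fold. No paired analysis was possible because the heart columns carry animal numbers and no replicate numbers. The sign changed when a heart was left out for genes near no change or with wide intervals: Acta1 (-0.28 to 0.12), Atf3 (-0.35 to 0.26), Atp2a2 (-0.011 to 0.036), Cacybp (-0.0068 to 0.071), Col1a1 (-0.16 to 0.036), Cop1 (-0.079 to 0.012), Cxcl1 (-0.37 to 0.00076), Dcn (-0.032 to 0.16), Hsp90aa1 (-0.19 to 0.026), Hsp90ab1 (-0.023 to 0.019), Hspa1a (-0.21 to 0.61), Hspa1b (-0.24 to 0.60), Mmp3 (-0.39 to 0.022), Mrps14 (-0.074 to 0.050), Myl4 (-0.55 to 0.086), Myl7 (-0.52 to 0.17), Nfkbia (-0.024 to 0.21), Pln (-0.0031 to 0.070), Rabgap1l (-0.071 to 0.045), Ryr2 (-0.026 to 0.037), Scgb1a1 (-0.31 to 0.77), Septin2 (-0.62 to 0.48), Sftpc (-0.27 to 0.73), Sln (-0.47 to 0.39) and Tead1 (-0.50 to 0.069). Leaving out 1 heart also turned the sign of the median of 20 of 37 gene lists. The cause of these shifts was not tested. The 4 hearts per genotype and the low counts of cytokine genes limit what could be detected, and genes under 1 CPM were bounded loosely.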
